A study of Mus musculus with 6 samples.

Results

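Immediate early genes are transcribed within minutes of a stimulus from factors already present in the cell. The 10 measured here were Fos, Fosb, Jun, Junb, Jund, Egr1, Atf3, Ier2, Ier3 and Dusp1. They were chosen by symbol, with earlier results of these data known. Every probe of each symbol was read, and each symbol proved to have 1 probe. They are 10 of the 20887 genes with a named probe on the array, and of the 14755 genes tested. Signal was well above background in both channels on all 6 arrays for each of the 10, so none entered through one group alone.

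The arrays held RNA of newborn mouse kidney cells, sorted as positive for GFP and dsRED and labelled as collecting duct cells, with 3 arrays of Bdkrb2 knockout (KO) and 3 of Bdkrb2 wild-type (WT) cells. KO pups were Hoxb7cre+; Bdkrb2f/f; R26RtdTomato and WT pups were Hoxb7cre+; R26RtdTomato; Bdkrb2+/+, all of the C57BL/6 strain at postnatal day 1. Both groups therefore carried Cre and the tdTomato reporter, and both were under a 5% sodium diet, so the comparison is between genotypes under salt. Bdkrb2 encodes the bradykinin B2 receptor, a G protein-coupled receptor that raises intracellular calcium and activates MAP kinases. Hoxb7-driven Cre acts in the ureteric bud lineage, which forms the collecting duct, so the floxed gene is deleted in that lineage and not in the whole animal. The labels do not say how many animals gave 1 sample, or whether samples came from separate litters. The p-values rest on the spread between these 3 arrays a group, whatever its source. That spread was pooled over both groups and moderated toward the spread of all genes tested (4 residual and 3.96 prior degrees of freedom).

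Growth factors, stretch, osmotic change and stress reach these genes through MAP kinases, calcium and cAMP. Serum response factor, with its ternary complex partners, and CREB bind in front of several of them. Fos and Jun proteins pair through leucine zippers to form the factor AP-1, and Dusp1 and Ier3 feed back on MAP kinase signalling. Transcripts of the family are short-lived, and in kidney, as in other tissues, they are also known to rise when tissue is dissociated into cells. Times of dissociation and sorting are not given in the sources used here.

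RefSeq promoter windows on build GRCm38.p6, from 250 bases before to 50 bases after the start site, matched 8 of the 10 genes. Egr1 and Ier2 had no entry. The 250 bases before the start site are shown for Fos, Fosb and Dusp1, the 3 genes whose patterns over the arrays lay closest together as a trio, and for Ier3, the gene with the lowest difference among the 10. They lie at chr12:85473640-85473889 (plus strand), chr7:19310046-19310295 (minus strand), chr17:26508473-26508722 (minus strand) and chr17:35821463-35821712 (plus strand). Each is written 5′ to 3′ on the strand of its gene. Capitals mark letters that match a searched motif on either strand.
Fos: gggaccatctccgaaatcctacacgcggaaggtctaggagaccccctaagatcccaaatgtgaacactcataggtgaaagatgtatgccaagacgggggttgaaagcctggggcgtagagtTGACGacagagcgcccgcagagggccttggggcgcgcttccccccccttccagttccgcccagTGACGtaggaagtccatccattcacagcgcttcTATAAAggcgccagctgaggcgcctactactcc
Fosb: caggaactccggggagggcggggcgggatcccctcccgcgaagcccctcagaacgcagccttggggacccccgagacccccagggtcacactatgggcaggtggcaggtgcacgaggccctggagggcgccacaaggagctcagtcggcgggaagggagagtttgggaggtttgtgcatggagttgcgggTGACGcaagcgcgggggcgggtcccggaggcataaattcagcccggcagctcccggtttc
Dusp1: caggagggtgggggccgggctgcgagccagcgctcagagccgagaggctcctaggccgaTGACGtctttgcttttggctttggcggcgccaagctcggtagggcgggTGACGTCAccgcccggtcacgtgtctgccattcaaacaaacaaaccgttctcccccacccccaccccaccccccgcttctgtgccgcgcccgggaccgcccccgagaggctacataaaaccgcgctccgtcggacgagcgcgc
Ier3: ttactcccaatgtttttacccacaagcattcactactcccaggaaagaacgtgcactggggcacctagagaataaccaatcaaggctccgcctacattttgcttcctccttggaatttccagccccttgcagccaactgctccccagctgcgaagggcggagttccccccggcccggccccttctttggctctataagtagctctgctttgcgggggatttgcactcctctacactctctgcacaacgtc

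The motifs were searched by exact letters over the full windows, on both strands. The CRE half-site TGACG, bound by CREB and ATF proteins, was in 5 of the 8 windows (Fos, Fosb, Dusp1, Atf3 and Junb) and in 20.8% of 32851 RefSeq windows of the same length. The whole CRE, TGACGTCA, which holds the half-site on both strands, was in the Dusp1 window alone, at positions -143 to -136 counted from the start, and in 1.79% of all windows. Fos held the half-site starting at positions -129 and -66 and the TATA box letters TATAAA starting at -33. TATAAA was in 13.6% of all windows and in 2 of the 8, Fos and Junb. In Junb it lay after the RefSeq start site, at positions 1 to 6. All positions and windows here depend on the start site that RefSeq gives, which was not checked. Neither the CArG box of serum response factor nor the AP-1 site TGANTCA was in any of the 8 windows, against 1.63% and 7.81% of all windows. Ier3, Jun and Jund matched none of the searched letters. A match is a description of letters. A window without one says nothing about sequence outside it, or about sites inside it that differ from the exact letters searched.

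Sample RNA was in Cy5 and RNA of WT replicate 1 was in Cy3 on every array, so each ratio reads a sample against 1 common reference and the WT1 array reads that RNA against itself. Agilent processing left the KO arrays brighter as a whole, with a 75th percentile of processed Cy5 of 548 to 625 intensity units on KO and 282 to 309 on WT arrays. Processed Cy5 intensities are therefore given below as deposited, and the comparison rests on the ratio to Cy3 of the same array. The array of KO replicate 1 stood apart from the other KO arrays. Its ratios correlated at 0.641 to 0.654 with them across genes, which are not independent replicates, while KO2 and KO3 correlated at 0.887. The 3 KO arrays and WT1 were in the upper row of 1 slide and WT2 and WT3 in the lower row. The single Bdkrb2 probe never rose well above background and so checks no genotype label.

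In KO cells 8 of the 10 genes were lower and 0 were higher than in WT cells, by a limma fit over all genes with Benjamini-Hochberg adjusted p under 0.05. Over all 14755 genes tested, 35.4% were called changed, 20.0% lower and 15.4% higher. The median log2 difference, KO minus WT, was -0.80 over the 10 genes and -0.02 over all genes. In these 8 genes all 3 KO ratios also lay below all 3 WT ratios, as they did for 28.2% of all genes (52.1% in either direction). Jund and Egr1 did not pass. In bulk RNA such as this, fewer cells of a type and less RNA per cell cannot be told apart.

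**Figure D1:**
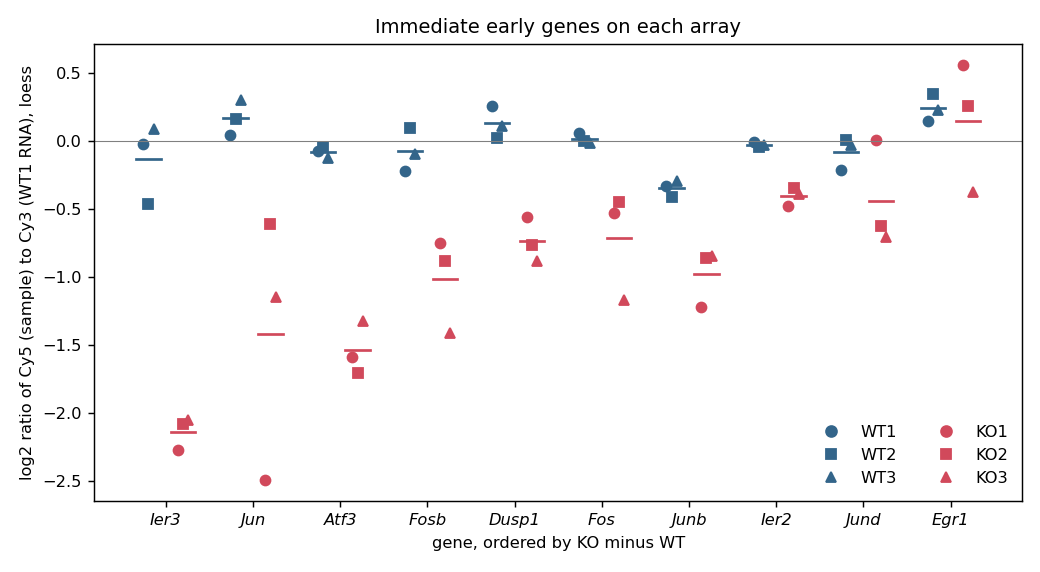
The log2 ratio of sample RNA (Cy5) to WT1 RNA (Cy3) after loess is shown on the y axis for each of the 10 genes on each of 6 arrays, blue for WT and red for KO, with a bar at the mean of 3. KO points lie below all WT points for 8 genes, and overlap WT for Jund and Egr1, while KO1 lies at -2.49 for Jun.

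Markers of the sorted cells and of others also differed between KO and WT, some lists being lower and some higher. Of the principal cell markers, 7 of 7 tested were lower in KO (median log2 difference -1.90), with summed processed Cy5 of 26660 to 29136 on WT and 12178 to 13518 on KO arrays, while Scnn1g never rose well above background. All 8 intercalated cell markers were lower (median -2.42), summing to 14183 to 21097 on WT and 5152 to 6229 on KO arrays. Of 8 ureteric lineage markers, 3 were lower and 1 higher (median -0.20), with sums of 11047 to 15066 on WT and 12211 to 16784 on KO arrays. Of the nephron progenitor markers, 7 of 8 were higher (median 2.32), and 7 of 8 stroma markers were higher too (median 2.17). The stroma sum was 3983 to 14383 on WT and 62086 to 73500 on KO arrays, and the nephron progenitor sum 9344 to 11484 and 38037 to 83314. Of 7 leukocyte markers, 5 were higher and 1 lower (median 0.99), with sums of 2016 to 3377 on WT and 7792 to 14059 on KO arrays. With the slide row as a block, which sets the KO arrays against WT1, 0 of 7 leukocyte markers were called in either direction (median 0.62), and the stroma median was 1.30 with 6 of 8 higher. The median stroma ratio was 0.08 on WT1, -1.0 on WT2 and -1.15 on WT3. Endothelial markers were lower in 7 of 8 (median -1.0), with sums of 26681 to 31226 on WT and 24664 to 28016 on KO arrays. Erythroid markers were lower in 4 of 4 (median -2.22), with sums of 74477 to 165529 and 43391 to 65019. These sums are processed Cy5 and carry the overall brightness of the KO arrays, while the medians are differences of ratios. Their part in the differences of the immediate early genes was not tested.

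Fos, the best-known partner of Jun in AP-1, had by far the most measured spots, since its probe (A_52_P262219, NM_010234) was printed 10 times on each array. Processed Cy5 was 6774, 6689.7 and 6209.9 on WT1, WT2 and WT3, and 9957, 10199.8 and 5168 on KO1, KO2 and KO3. As deposited, the log10 ratio to Cy3 was 0.0256, 0.0093 and 0.0033 on the WT arrays and -0.126, -0.0917 and -0.322 on the KO arrays. The WT arrays sat at the reference and the KO arrays all sat below it, KO3 farthest. In these deposited ratios the repeat spots were much tighter than the gaps between KO arrays, with an SD within an array of 0.00585 to 0.0115 on the log10 scale. The lowest WT spot was at -0.0204 and the highest KO spot at -0.0831, so single spots did not overlap between groups. After loess the log2 ratios read 0.06, 0.0029 and -0.01 in WT and -0.53, -0.44 and -1.17 in KO. The spots were looser there, with an SD on the log2 scale of 0.0557 on KO1, 0.0673 on KO2 and 0.162 on KO3. Spots of KO1 and KO2 overlapped. KO minus WT, in log2, was -0.73 ± 0.18 (SE, n = 3 and 3), 1.66-fold lower in KO, with adjusted p = 0.0171 and a 95% interval of -1.16 to -0.31. This call was lost in 7 of 18 alternatives: adjusted p was 0.0622 with Agilent's own ratio (and with the deposited series matrix, which holds it), 0.230 with median centring (where the difference itself was -0.39), 0.0639 with Cy5 alone, 0.116 with the slide row as a block, 0.0538 without WT1 and 0.0564 without WT3.

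**Figure D2:**
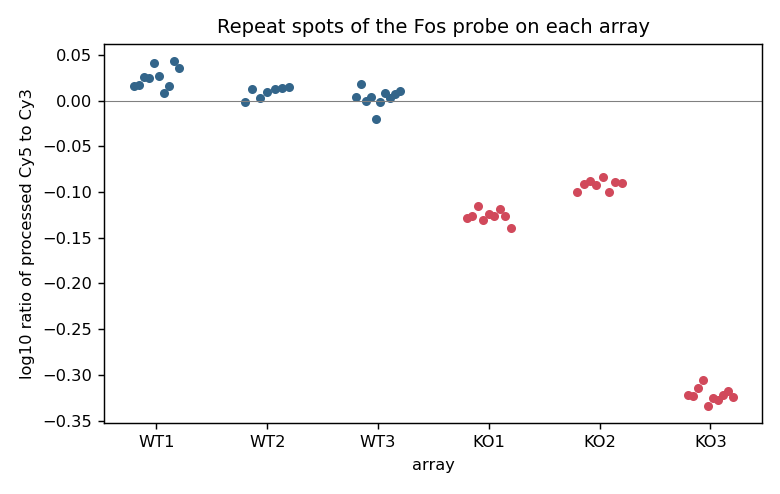
Each point is 1 spot of the Fos probe, with the deposited log10 ratio of processed Cy5 to Cy3 on the y axis and the 6 arrays on the x axis, leaving out spots marked as outliers. Spots of an array lie close together, all KO spots lie below -0.08, and KO3 lies lowest, at -0.334 to -0.305.

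Fosb, the second Fos family member, shared with Fos its lowest array, KO3. Its probe (A_55_P2113051, NM_008036) read 3894, 5018 and 4114 on the WT arrays and 6053, 5019.8 and 2927 on the KO arrays in processed Cy5. Relative to Cy3, loess log2 ratios stood at -0.22, 0.10 and -0.10 in WT and -0.75, -0.88 and -1.41 in KO. The groups did not overlap, and the KO arrays spanned more than the WT arrays. The fitted log2 difference came to -0.94 ± 0.18 (SE), 1.92-fold lower, with adjusted p = 0.00523. It passed in all alternatives but the slide row block, where adjusted p was 0.0914.

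Jun, the AP-1 subunit that can also pair with itself, had the widest spread of the 10. Processed Cy5 of its probe (A_55_P2158990, NM_010591) was 36489, 43351 and 40183 on the WT arrays and 12989, 50496 and 33014 on the KO arrays. On the log2 scale, ratios after loess read 0.05, 0.16 and 0.30 in WT and -2.49, -0.61 and -1.15 in KO. All KO values lay below all WT values, but they spanned 1.89 on the log2 scale, with the array of KO1 lowest. The log2 difference was -1.59 ± 0.41 (SE), 3.00-fold lower, with adjusted p = 0.0189 and a 95% interval of -2.54 to -0.64. Without KO1 it was smaller and less spread, -1.05 with adjusted p = 0.00219. Adjusted p was 0.0543 without WT2, 0.0694 without WT3, 0.0509 with Cy5 alone and 0.164 with the slide row block.

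Junb, a Jun relative that forms weaker activating dimers, was read by a dim probe. Its probe (A_55_P2011106, NM_008416) read 128, 123 and 137 in processed Cy5 on the WT arrays and 96.5, 180.2 and 145 on the KO arrays, with spots only 2.65 to 4.26 times the local background. Against Cy3, the log2 ratios came to -0.33, -0.41 and -0.30 in WT and -1.22, -0.86 and -0.84 in KO. The WT1 array, which holds the same RNA in both dyes, was itself at -0.33, a ratio of this size with no difference in RNA. Read from 1 spot, it does not separate a dye offset, which KO minus WT would remove, from spot noise, which it would not. KO minus WT, in log2, was -0.63 ± 0.13 (SE), 1.55-fold lower, with adjusted p = 0.00652. With median centring adjusted p was 0.166, and with the slide row block it was 0.0697. Agilent's own ratio gave -0.98, over 1.5 times as large, with adjusted p = 0.0141.

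Jund, the Jun family member that many resting cells express steadily, did not pass. Processed Cy5 of its probe (A_51_P357744, NM_010592) was 14477, 16703 and 14422 on the WT arrays and 31663, 21939 and 19263 on the KO arrays. The loess log2 ratios read -0.21, 0.01 and -0.03 in WT and 0.01, -0.63 and -0.71 in KO. KO2 and KO3 lay below all WT values and KO1 lay among them. KO minus WT, in log2, was -0.36 ± 0.19 (SE), with adjusted p = 0.170 and a 95% interval of -0.80 to 0.07. Leaving out KO1 gave -0.59 with adjusted p = 0.00393, array weights (0.254 for KO1) gave -0.53 with adjusted p = 0.00763. Without KO2 it was -0.27 with adjusted p = 0.375 and without KO3 -0.23 with adjusted p = 0.401, the slide row block gave -0.23 with adjusted p = 0.629, and median centring turned the sign to 0.05.

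Egr1, a zinc finger factor that serum response factor drives, had KO arrays on both sides of WT. Processed Cy5 of its probe (A_51_P367866, NM_007913) was 13599, 14845 and 12739 on the WT arrays and 33859, 28211 and 15702 on the KO arrays. Relative to Cy3, loess log2 ratios stood at 0.15, 0.35 and 0.23 in WT and 0.56, 0.26 and -0.38 in KO. KO1 lay above all WT values, KO2 among them and KO3 below them. The fitted log2 difference came to -0.09 ± 0.22 (SE), with adjusted p = 0.763. Its 95% interval, -0.60 to 0.41, leaves room for a fall as large as that estimated for Ier2 and for a rise of similar size. The sign turned with median centring (0.31) and without KO3 (0.17), and adjusted p was 0.215 to 0.995 over all alternatives.

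Atf3, a stress-induced factor of the ATF and CREB family that can bind with Jun, was among the most uniform. Its probe (A_52_P452689, NM_007498) read 1561, 1676 and 1497 in processed Cy5 on the WT arrays and 1119, 1016 and 1212 on the KO arrays, lower in KO even before the overall brightness of the KO arrays is taken into account. On the log2 scale, ratios after loess read -0.07, -0.04 and -0.12 in WT and -1.59, -1.71 and -1.32 in KO. Neither group spanned as much as the gap between them. The log2 difference was -1.46 ± 0.12 (SE), 2.75-fold lower, with adjusted p = 0.000215. Over all 18 alternatives it stayed between -1.57 and -1.20, with adjusted p of at most 0.00671. Some of the 18 could not move it, such as the mean of probes, since the gene has 1 probe.

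Ier3, a small protein that acts on cell survival and on ERK signalling, had the lowest difference of the 10. Processed Cy5 of its probe (A_51_P286488, NM_133662) was 1581, 1028 and 1571 on the WT arrays and 567, 613 and 595 on the KO arrays. Against Cy3, the log2 ratios came to -0.02, -0.46 and 0.09 in WT and -2.28, -2.08 and -2.05 in KO. The spread was in WT here, where WT2 was lowest, and the KO arrays lay close together. KO minus WT, in log2, was -2.01 ± 0.16 (SE), 4.02-fold lower, with adjusted p = 0.000200, and 0.732% of all genes had a lower one. Over the 18 alternatives it stayed between -2.19 and -1.77, with adjusted p of at most 0.00627.

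Ier2, a nuclear protein of the same naming series but another family, had the smallest difference of those called. Processed Cy5 of its probe (A_55_P2163028, NM_010499) was 869, 965 and 829.7 on the WT arrays and 1352, 1572 and 1088 on the KO arrays. The loess log2 ratios read -0.01, -0.04 and -0.03 in WT and -0.48, -0.34 and -0.39 in KO. Both groups were tight, and the log2 difference was -0.38 ± 0.09 (SE), 1.30-fold lower, with adjusted p = 0.0156. Of all genes, 21.1% had a lower difference. With median centring it was -0.09 with adjusted p = 0.797, and adjusted p was 0.122 with the slide row block, 0.0551 without WT1 and 0.0621 without WT3.

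Dusp1, the phosphatase that switches off p38 and JNK in the nucleus, was lower in every KO array. Processed Cy5 of its probe (A_51_P430900, NM_013642) was 1869.8, 1619.8 and 1701 on the WT arrays and 2234, 1892 and 1376 on the KO arrays. Relative to Cy3, loess log2 ratios stood at 0.26, 0.02 and 0.11 in WT and -0.56, -0.76 and -0.88 in KO. The self-against-self array gave the highest of these, 0.26, a ratio of the same RNA to itself. The fitted log2 difference came to -0.87 ± 0.12 (SE), 1.82-fold lower, with adjusted p = 0.00134. Of the alternatives, median centring alone lost the call, at -0.59 with adjusted p = 0.0609.

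**Figure D3:**
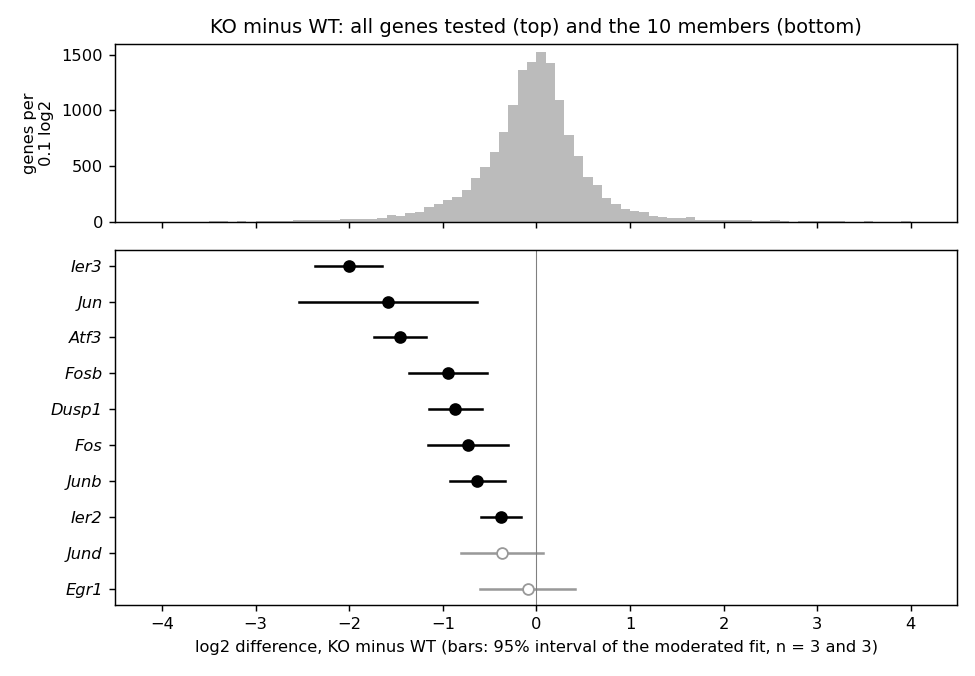
The upper panel is a histogram of the log2 difference, KO minus WT, of all 14755 genes tested, and the lower panel gives the 10 genes with their 95% intervals, filled where adjusted p is under 0.05. Ier3, Jun and Atf3 lie far to the left of the bulk of genes, and the intervals of Jund and Egr1 cross 0.

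In order, the log2 differences ran Ier3, Jun, Atf3, Fosb, Dusp1, Fos, Junb, Ier2, Jund and Egr1. The 95% intervals of all neighbours in this order overlapped. Ier3 (-2.37 to -1.65) and Atf3 (-1.74 to -1.18) overlapped narrowly, and that of Jun (-2.54 to -0.64) covered both. Measured against the genome-wide distribution, 1.54% of all genes had a lower difference than Jun, 1.99% than Atf3, 5.98% than Fosb, 7.12% than Dusp1, 9.37% than Fos and 11.7% than Junb. Jund and Egr1 stood at 21.9% and 42.6%. Differences between genes of this list were not tested.

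Cy3 held the same RNA on all 6 arrays, and its SD over them, on the log2 scale after division by the 75th percentile, was 0.0201 for Egr1 and 0.0927 for Jun, the lowest and highest of the 10, against a median of 0.0887 over all genes. That spread leaves out any offset between the dyes. On the WT1 array, with the same RNA in both, ratios of these genes were up to 0.33 in size (Junb -0.33, Dusp1 0.26, Fosb -0.22, Jund -0.21). Each of these was 1 spot on 1 array, which does not separate a dye offset from spot noise. For 9 of the 10 genes, Ier3 being the exception, the SD over KO arrays exceeded that over WT arrays, as it did for 62.4% of all genes. The median SD of the 10 was 0.108 in WT and 0.283 in KO, and over all genes it was 0.114 and 0.155.

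The KO arrays did not rank alike from gene to gene. KO3 was the lowest KO array for Fos, Fosb, Jund, Egr1 and Dusp1. KO1 was lowest for Jun, Junb, Ier2 and Ier3, and KO2 for Atf3. KO1 was also the highest KO array for Fosb, Jund, Egr1 and Dusp1, so leaving it out lowered their differences and brought Jun nearer to 0. Without KO1, 9 of the 10 genes were called (38.7% of all genes), Jund being added. The log2 differences without it were -0.82 for Fos, -1.08 for Fosb, -0.51 for Junb, -0.30 for Egr1, -1.44 for Atf3, -0.34 for Ier2, -1.94 for Ier3 and -0.95 for Dusp1.

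By the root mean square distance between log2 ratios centred on each gene's mean over the 6 arrays, Junb and Ier2 (0.156) were the nearest pair and Fos and Fosb (0.166) the next. Dusp1 lay 0.194 from Fos and 0.209 from Fosb, and Jund lay 0.213 from Egr1. Jun and Egr1 were the most distant pair, at 1.06. Other genes were searched only outside the gene lists used here, with clone and predicted names left aside, so a nearer list gene would not show. Among these, the nearest to Fos were Gimap8 (0.125), Afp (0.130) and Cyb561d1 (0.147). The nearest to Jun were Etnk1 (0.197), Ptprb (0.238) and Kitl (0.247), and the nearest to Egr1 were Amigo1 (0.0979), Per1 (0.101) and Wwp2 (0.108). These distances rest on 6 arrays and a shared reference and are a description of likeness only.

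**Figure D4:**
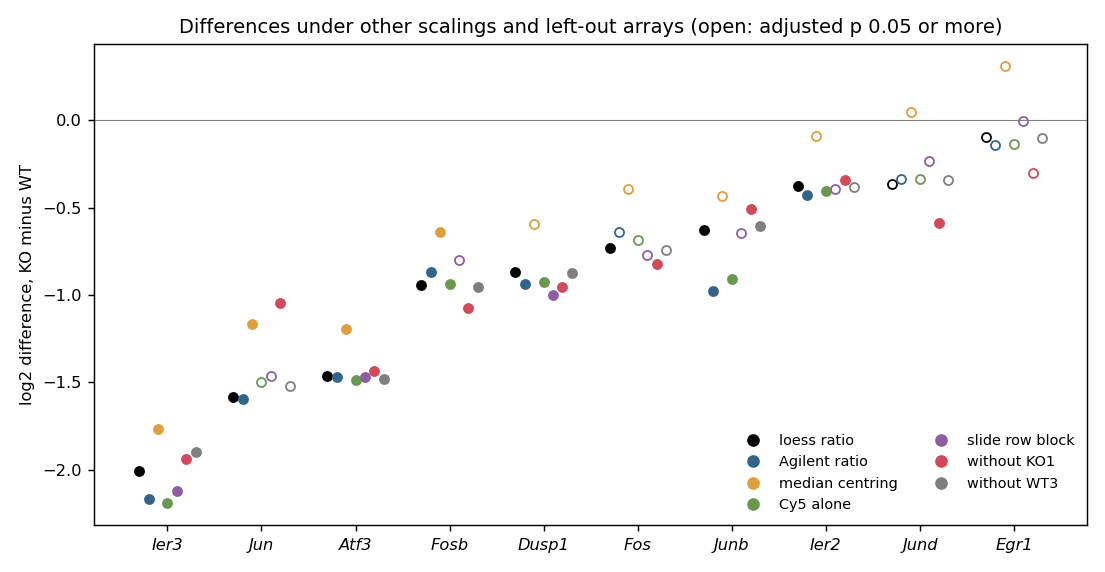
The log2 difference, KO minus WT, on the y axis is shown for each of the 10 genes under 7 settings, filled where adjusted p is under 0.05. Ier3 and Atf3 stay filled in all 7, Fos is filled with loess and without KO1 only, and median centring places every gene higher than loess does, Jund and Egr1 above 0.

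The number of calls changed with how the ratios were centred. With each array centred on its median ratio, 4 of the 10 genes passed (Atf3, Fosb, Ier3 and Jun), where 7.03% of all genes were called lower. Under that scaling, which called 27.4% of genes in either direction, the all-gene median stood at 0.24 in place of -0.02, and 74.4% of calls were higher in place of 43.5%. With Agilent's ratio 7 of the 10 passed (18.0% of all genes lower), and with Cy5 alone 6 did (34.2% of all genes in either direction, 18.3% lower). Leaving out WT3 left 5, Fosb, Junb, Atf3, Ier3 and Dusp1, where 22.0% of all genes were called. Relative to the median of all genes, the median of the 10 was -0.78 with loess, -0.75 with median centring, -0.90 with Agilent's ratio and -0.89 with Cy5 alone. Within the upper slide row, where all KO arrays share the row with WT1 only, the log2 differences were -0.77 for Fos, -0.80 for Fosb, -1.46 for Jun, -0.65 for Junb, -1.47 for Atf3, -0.40 for Ier2, -2.12 for Ier3 and -0.997 for Dusp1. Jund stood there at -0.23 and Egr1 at -0.00346. With the row as a block Atf3, Dusp1 and Ier3 passed, 3 of 10, where 15.0% of all genes did.

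Genes around the 10 were read from 7 further lists of the pathway. Their counts stand against 35.4% of all genes called, 20.0% lower and 15.4% higher, and against 15.0% with the slide row as a block. Of 17 other immediate early factors tested, 5 were lower, 2 were higher and 10 did not pass, with a median log2 difference of -0.28. That is 41.2% called, near the share over all genes. The Krüppel-like factors Klf4 (-1.37 ± 0.10, adjusted p = 0.000184) and Klf6 (-1.0 ± 0.10, adjusted p = 0.000301) and the nuclear protein Csrnp1 (-0.84 ± 0.13, adjusted p = 0.00172) had the smallest p. Myc, a growth factor-induced regulator of cell growth (0.78 ± 0.15, adjusted p = 0.00587), and Ier5 (0.52 ± 0.10, adjusted p = 0.00485) were higher. Egr2 (-0.28, adjusted p = 0.206) and Egr4 (-0.27, adjusted p = 0.125), picked after their values were seen as relatives of Egr1, did not pass. With median centring 2 of the 17 were lower and 2 higher (23.5% called, against 27.4% of all genes), and with the slide row block 3 were lower and 0 higher, adjusted p being 0.0692 for Myc and 0.0745 for Ier5.

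Of 16 other leucine zipper factors that can pair with Fos, Jun or Atf3, or share their sites, 3 were lower, 3 were higher and 10 did not pass, with a median of -0.03 and 37.5% called, near the 35.4% of all genes. Nfe2l2, the factor of the antioxidant response (-1.01, adjusted p = 0.000482), Crem (-0.38, adjusted p = 0.0120) and Cebpd (-0.65, adjusted p = 0.0247) were lower. Among those higher were Batf, known from lymphocytes (1.03, adjusted p = 0.000720), and Jdp2, a repressor of AP-1 (0.68, adjusted p = 0.0222). With the slide row block 1 was lower and 1 higher, Nfe2l2 and Batf. Under median centring 1 of the 16 was lower and 5 were higher, with a median of 0.30. That is 37.5% called, against 27.4% of all genes, whose median was 0.24 under that scaling.

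Upstream of the family, of 17 factors that act on these promoters 1 was lower (Stat3, -0.92 ± 0.21, adjusted p = 0.0120), 1 was higher (the CREB coactivator Crtc3, 0.42 ± 0.11, adjusted p = 0.0176) and 15 did not pass, so that 11.8% were called against 35.4% of all genes. Median centring called 0 of the 17 lower and 2 higher, 11.8% against 27.4% of all genes. With the slide row block 0 of the 17 were called in either direction, with adjusted p = 0.106 for Stat3 and 0.235 for Crtc3. Mrtfa, a coactivator of serum response factor, stood at -0.23 with adjusted p = 0.0982. Of 21 MAP kinases and their kinases, 3 were lower, 4 were higher and 14 did not pass, with a median of -0.04 and 33.3% called, near the share over all genes. Mapk13, a p38 kinase (-0.98, adjusted p = 0.000307), Map2k7, which activates JNK (-0.53, adjusted p = 0.00796), and Rps6ka1 (-0.48, adjusted p = 0.0202) were lower, and Mapk7, which encodes ERK5, was higher (0.54, adjusted p = 0.00361). With the slide row block Mapk13 and Map2k7 passed and 0 were higher, adjusted p being 0.0558 for Mapk7 and 0.257 for Rps6ka1. Under median centring 1 of the 21 was lower and 5 were higher, with a median of 0.27 (28.6% called, against 27.4% of all genes). These are transcript levels, and kinase activity was not measured.

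Among 25 feedback and effector genes, 11 were lower, 1 was higher and 13 did not pass, with a median of -0.32. Of these 25, 48.0% were called, against 35.4% of all genes. Gem, a small GTPase (-2.24 ± 0.18, adjusted p = 0.000200), Rgs2, which shortens G protein signals (-1.52 ± 0.20, adjusted p = 0.000949), and Gadd45g (-0.82 ± 0.12, adjusted p = 0.00159) had the smallest p. Zfp36l2 was higher (0.47, adjusted p = 0.0346). With median centring 4 of the 25 were lower and 2 higher (all genes 7.03% lower, 27.4% in either direction), and with the slide row block 4 were lower and 0 higher, where adjusted p was 0.294 for Zfp36l2. Of 11 MAP kinase phosphatases besides Dusp1, Dusp9 (-1.32, adjusted p = 0.000399), Dusp3 (-0.55, adjusted p = 0.0138) and Dusp8 (-0.45, adjusted p = 0.0346) were lower and Dusp2 was higher (0.47, adjusted p = 0.0356), while 7 did not pass. The 36.4% called here is near the share over all genes, and with the slide row block Dusp9 alone passed. Under median centring 1 of the 11 was lower and 2 were higher (27.3% called, against 27.4% of all genes).

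Of 17 heat shock and metallothionein genes, 4 were lower, 1 was higher and 12 did not pass, with a median of -0.04 and 29.4% called against 35.4% of all genes. The metallothioneins Mt1 (-2.27, adjusted p = 0.000748) and Mt2 (-2.12, adjusted p = 0.000444) were lower and the inducible chaperone Hspa1a was higher (1.13 ± 0.15, adjusted p = 0.00115). Each of these has a closely related paralog, so its probe may read more than 1 gene. Probe sequences were not available, so this was not checked and these values are uncertain. Under median centring 2 of the 17 genes were lower and 4 were higher, with a median of 0.33 (35.3% called, against 27.4% of all genes).

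**Figure D5:**
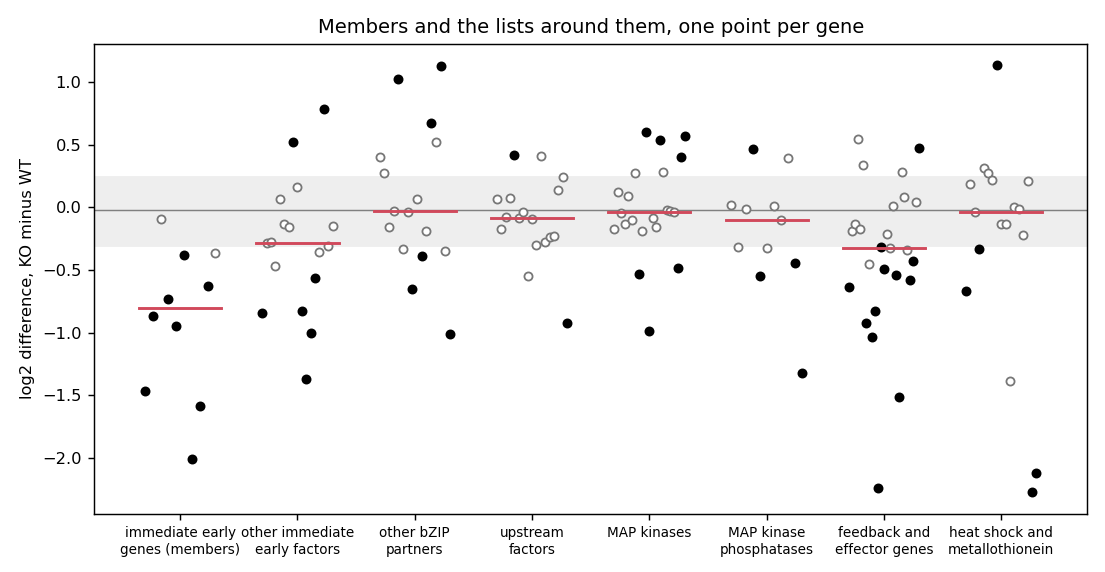
Each point is a gene, with its log2 difference, KO minus WT, on the y axis, in the 10 immediate early genes and 7 related lists, filled where adjusted p is under 0.05, with a red bar at the median of the list. The grey line and band give the median and the range between the 25th and 75th percentile of all genes (-0.31 to 0.24). The median of the 10 lies at -0.80, below the band, while that of the feedback genes lies just below its edge and those of the other 6 lists inside it.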

How the data were processed

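The deposited scanner files hold spot intensities of both channels and a log10 ratio of processed Cy5 to Cy3, and per the file headers Agilent Feature Extraction 10.7.3.1 wrote them (version 6.1 in the submitters' processing notes). Per the file headers, that program subtracted background from the processed intensities and normalised the dyes. The same log10 ratios, within 0.00499, make up the deposited series matrix. The series text calls the experiment single-colour, while labels and files hold 2 channels, with no dye swap.

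From the deposited median intensities, normexp (offset 50), log2 ratios and loess within arrays were computed, with control spots at weight 0. Outlier spots were left out and spots of a probe averaged. Probes with Cy5 well above background on at least 3 of 6 arrays were kept, and the brightest probe stood for a gene. Of 55681 probes, 27509 were named by accession through a RefSeq table of GRCm38.p6, used for names only. The 2-sided test of KO minus WT was that of limma 3.58.1 (lmFit, eBayes; R 4.3.3), and p was adjusted over all genes by Benjamini-Hochberg, with calls under 0.05. The fit was tested on simulated data. Precision is limited by 3 arrays a group.

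The 10 genes, the lists and the alternatives were chosen with earlier results of these data known. Named beyond the 10 were, per list, up to 3 genes of smallest p and the called genes of a direction that at most 3 took. Also named were, from outside the lists and without clone names, the 3 genes nearest in pattern to each of Fos, Jun and Egr1. Some genes that this rule would name are not reported here. Of 192 genes written in 15 lists, 188 were on the array. In all, 18 alternatives were run, namely other normalisations, background and filters, mean of probes, slide row, replicate number, array weights and each array left out. No gene positions are given beyond the promoter windows.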

Additional observations from a re-analysis of the deposited data

How the results depend on the processing

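Atf3 and Ier3 were called lower in all 18 alternatives. The number of the 10 genes called, 8 in the reported fit, was 4 with median centring and 3 with the slide row as a block, and 5 to 9 with 1 array left out (5 without WT3, 9 without KO1). Among all genes, median centring called 1037 lower. The slide row block called 2209, of which 733 were higher and 1476 lower, and leaving out 1 array gave 3244 to 5713 calls, 1273 to 2374 of them higher. The cause of these shifts was not tested. Signs reversed, without any call, with median centring for Egr1 (0.31), Jund (0.048), Mrtfa (0.070) and Nfkbia (0.021), and without KO3 for Egr1 (0.17), whose difference ran from -0.30 to 0.17 with 1 array left out. Nfkbia, a feedback gene, was called lower in the reported fit. Some of the 18 alternatives could not move the difference of any of the 10 genes. Quantile adjustment of average intensity left the ratios as they were, and each of the 10 has 1 probe, which passed every filter. The replicate block is balanced and left the differences unchanged, and the series matrix repeats Agilent's ratio.

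Replicate numbers shared by KO and WT did not pair the arrays by the rule used, since deviations of same-numbered arrays correlated at 0.135, 0.0835 and 0.200. Each array correlated best with its own number, a hint from the data and not from the design. With the replicate number as a block, 8 of the 10 genes and 5140 of all genes were called. The row block rests on WT1 alone for its contrast within a row, the array that also serves as reference RNA. Signal over background limits Junb most, and 3 arrays a group limit all genes.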
